A study of Mus musculus with 60 samples.

Results

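The proneural factors are the transcription factors that commit dividing progenitors to become neurons and endocrine cells. They were followed here as a set of 9 genes chosen by symbol: the neurogenins Neurog1, Neurog2 and Neurog3, the NeuroD factors Neurod1, Neurod2, Neurod4 and Neurod6, the atonal homologue Atoh1, and Insm1. All 9 were found among the 21866 genes with a protein-coding start site in the annotation. The measure was H3K27me3, trimethylation of lysine 27 on histone H3, at their promoters and over their bodies. Of the 9 promoters, 4 carried an H3K27me3 peak in all 30 libraries, 3 in some libraries, and 2 in no library.

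Of the members, 8 are basic helix-loop-helix (bHLH) proteins, which bind E-box DNA as dimers with the broadly expressed E-proteins. They switch on Notch ligands, zinc-finger repressors and other bHLH factors, and are held in check by Id proteins, which sequester E-proteins, and by the Hes and Hey repressors downstream of Notch. Insm1 is a zinc-finger repressor that acts downstream of them in neuronal and endocrine precursors. H3K27me3 is laid down by Polycomb repressive complex 2 (PRC2), and in embryonic stem cells (ESCs) it typically lies over the CpG-rich promoters of developmental regulators that are not yet expressed.

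The libraries came from male mouse ESC lines in a serum-free monolayer culture that turns WT ESCs into anterior neural progenitor cells (antNPCs). The comparison of genotypes asks what TET1, an enzyme that oxidises methylated cytosine, does for Polycomb marking ahead of and following lineage choice. Cells lacking Tet1 (KO), cells with a catalytically dead TET1 (MUT) and wild-type (WT) cells were sampled at day 0 in serum, at days 2, 3 and 5 of differentiation with bFGF during its first part, and at day 5 after culture from day 2 with 5 µM XAV939, which inhibits Wnt signalling (day 5 XAV). Each genotype had 2 cell lines at each of the 5 time points: KO15 with KO25 at days 0 and 2 and with KO1 later, CM59 with CM40 and then CM69 (MUT), and WT70 with WT72 throughout. All lines share a B6129S6F1 Tet1<tm1Koh> origin. The paper describes KO and WT lines derived from blastocysts, MUT clones edited with Cas9 from a single WT parental line, and mock-transfected clones of that line. It does not name WT70 or WT72, so whether these are such mock clones is unknown here. Day 5 WT cultures serve as the model of antNPCs. Because the second KO and MUT lines changed between day 2 and day 3, line and day cannot be fully told apart in those genotypes. KO25 was assigned by its titles and cell line fields, although their description field names WT70.

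The number of peaks per library was 704 to 3466 (median 1789), and the read depth behind them is unknown. Peaks at day 2 were broad, with a median width of 5975 to 9155 bp per library, against 3676 to 7715 bp at the other times. The narrowest were those of KO15 at day 3. From day 3 on, KO libraries held 1729 to 2738 peaks and WT libraries 969 to 1717. None of 5 housekeeping promoters was called in any library, while 5 of 6 mesoderm and endoderm regulators were called in all 30, and so were 3 of 7 neural progenitor regulators. Of 6 pluripotency regulators, 1 (Esrrb) was called in all 30, day 0 included, and 2 in none. Klf4 was called in 21 and Pou5f1 in 11. The promoter of Tet1 was called in 0 libraries, so these peaks do not check the genotype labels, and a repressive mark does not show which cell types were present. Since the cells were profiled in bulk, the mark in fewer cells and a weaker mark per cell cannot be told apart.

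A promoter was called in a library when a peak reached within 1.5 kb of a start site. By this measure Neurog1, Neurog2, Neurog3 and Neurod2 were called in all 30 libraries, Atoh1 in 29, Insm1 in 25 and Neurod1 in 9, whereas Neurod4 and Neurod6 were called in 0. Among all genes 14.5% were called in at least 2 libraries, and of these 13.8% were called in every library. Counting peaks anywhere over the gene gave the same number for each member. For Neurod4 and Neurod6 this means that no peak touched the promoter or the body at any time point in any genotype, with or without XAV.

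**Figure D1:**
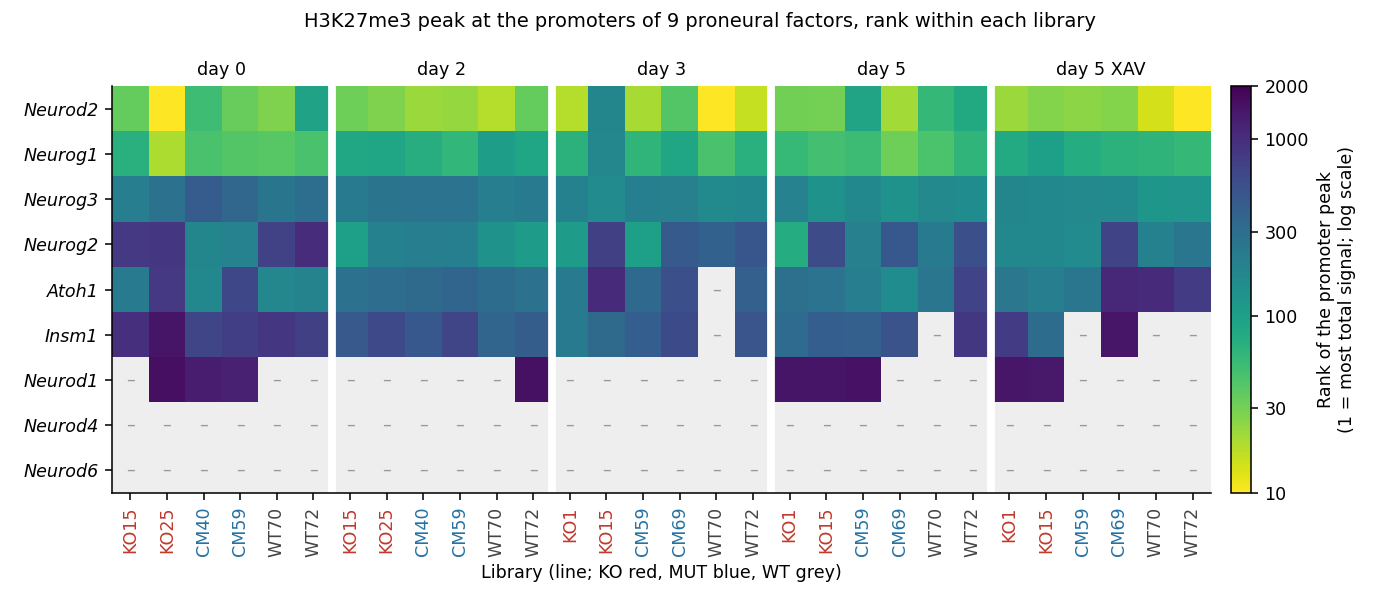
Rank of the promoter peak of each member (rows) in each of the 30 libraries (columns, by day and line), where 1 is the peak with the most total signal of the library and the colour scale is logarithmic; grey cells with a dash have no peak. Neurod2 and Neurog1 lie near the top in every library, Insm1 and Neurod1 are missing from some, and Neurod4 and Neurod6 from all.

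The members differed in the density of CpG dinucleotides around their start sites. Within 1.5 kb of the start, Neurod4 had 0.6 and Neurod6 had 1.17 CpG per 100 bp, the lowest values of the 9. Neurod1 had 2.5, Neurog3 3.6, Neurod2 4.43, Atoh1 5.03, Neurog1 5.2, Neurog2 7.26 and Insm1 10.8 CpG per 100 bp. Promoters called in no library had a median of 2.17 CpG per 100 bp (n = 18278), those called in 1 to 29 libraries 3.63 (n = 3136) and those called in all 30 libraries 4.7 (n = 439). The members never called thus lay below the median of uncalled promoters, and Neurod1 lay near it. The order within the called members did not follow CpG density, because Insm1, with a value reached by 0.0412% of promoters, was called less often than Neurog3, with one reached by 29.2%.

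**Figure D2:**
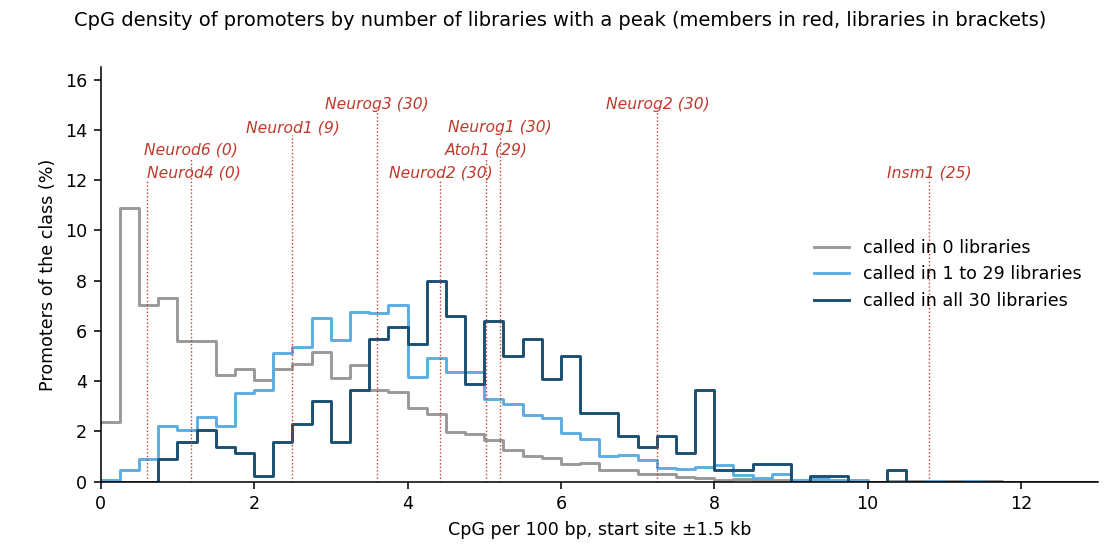
Share of promoters (vertical axis, %) by CpG per 100 bp within 1.5 kb of the start site (horizontal axis), for promoters called in 0, in 1 to 29 and in all 30 libraries; dotted red lines mark the members, with the number of libraries in which each was called. Neurod4 at 0.6 and Neurod6 at 1.17 lie at the CpG-poor end and Insm1 at 10.8 at the CpG-rich end.

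The bases directly before the start site show the same contrast in some members and not in others. They are given 5′ to 3′ on the strand of the gene, with each CpG in capitals, from RefSeq promoters of build GRCm38.p6, which held 8 of the 9 members. Neurod4 (chr10:130280255-130280504, minus strand) and Neurod6 (chr6:55681264-55681513, minus strand) are shown as the members never called, Neurod1 (chr2:79456752-79456886, minus strand) as the member called least often, and Neurog1 (chr13:56252181-56252430, minus strand), Neurog2 (chr3:127632886-127633134, plus strand) and Neurod2 (chr11:98329649-98329895, minus strand) as members called in every library.
Neurod4: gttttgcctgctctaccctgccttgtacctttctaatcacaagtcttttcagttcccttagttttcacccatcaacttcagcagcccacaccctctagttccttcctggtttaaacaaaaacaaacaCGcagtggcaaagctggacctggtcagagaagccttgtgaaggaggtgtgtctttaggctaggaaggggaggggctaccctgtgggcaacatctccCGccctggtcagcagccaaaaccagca
Neurod6: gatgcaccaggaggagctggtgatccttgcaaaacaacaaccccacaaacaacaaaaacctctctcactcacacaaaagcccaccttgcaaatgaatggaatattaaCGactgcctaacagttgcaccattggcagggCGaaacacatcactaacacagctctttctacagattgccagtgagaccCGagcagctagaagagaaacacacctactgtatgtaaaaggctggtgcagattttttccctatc
Neurod1: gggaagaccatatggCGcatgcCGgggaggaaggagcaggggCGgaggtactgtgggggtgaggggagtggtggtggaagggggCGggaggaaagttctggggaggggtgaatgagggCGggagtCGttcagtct
Neurog1: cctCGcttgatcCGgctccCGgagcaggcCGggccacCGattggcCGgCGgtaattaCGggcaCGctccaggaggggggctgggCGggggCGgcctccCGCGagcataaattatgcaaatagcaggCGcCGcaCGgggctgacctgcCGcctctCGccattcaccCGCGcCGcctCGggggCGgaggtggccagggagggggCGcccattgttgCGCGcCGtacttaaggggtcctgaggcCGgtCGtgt
Neurog2: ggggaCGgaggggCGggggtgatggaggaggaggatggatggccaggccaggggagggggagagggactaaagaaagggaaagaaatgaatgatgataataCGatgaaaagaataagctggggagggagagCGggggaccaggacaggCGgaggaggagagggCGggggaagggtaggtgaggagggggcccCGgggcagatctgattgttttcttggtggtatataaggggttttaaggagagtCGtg
Neurod2: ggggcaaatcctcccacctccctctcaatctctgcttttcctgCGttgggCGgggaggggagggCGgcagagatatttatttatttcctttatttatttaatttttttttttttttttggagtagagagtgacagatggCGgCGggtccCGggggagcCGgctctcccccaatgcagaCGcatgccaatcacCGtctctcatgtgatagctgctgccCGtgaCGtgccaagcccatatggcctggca
These stretches held 2 CpG in 250 bases in Neurod4 and 3 in 250 in Neurod6, but 29 in 250 in Neurog1 and 11 in 247 in Neurod2. Neurog2 held 8 in 249, close to the median of 6 among the 32851 promoters of the table, so that its high density over the wider window lies outside these bases. Neurod1 held 6 in 135 bases.

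Members with a peak differed in strength, and their order held to differing degrees in single libraries. Peaks were ranked within each library by their total signal, a measure that grows with width. By the highest point of the peak, Neurod2 stood nearer the top than Neurog3 in some libraries and farther from it in others. Neurod2 stood at a median rank of 27.5, Neurog1 at 63.5, Neurog3 at 192, Neurog2 at 204, Atoh1 at 283, Insm1 at 514 and Neurod1 at 1481. The median over promoters called in every library was 250, and over all 3179 promoters called in at least 2 libraries 1342. Neurod2 was nearer the top than Neurog1 in 24 of 30 libraries and Neurog1 nearer than Neurog3 in 29 of 30. Neurog3 and Neurog2 did not separate, with Neurog3 nearer the top in 17 of 30 libraries. Neurog2 preceded Atoh1 in 21 of 29 libraries with both, Atoh1 preceded Insm1 in 24 of 25, and Insm1 preceded Neurod1 in 9 of 9.

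The neurogenins start the neuronal programme in cortical, sensory and spinal progenitors, and Neurog3 that of pancreatic and intestinal endocrine cells. The peak over Neurog1 (ENSMUSG00000048904.5, chromosome 13, 56250478 to 56252163, minus strand) had a median width of 18.5 kb, with 6.52 kb in KO15 at day 3 as the lowest and 23.3 kb in KO25 at day 2 as the highest. Only 2.86% of promoters called in at least 2 libraries had a median as wide. Its downstream edge was nearly fixed, lying within 0.1 kb of a position 6.49 kb past the start site in 25 of 30 libraries, and its upstream edge varied more.

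Neurog2 (ENSMUSG00000027967.8, chromosome 3, 127633135 to 127635631, plus strand) was the member whose mark was most often broken up. Within 10 kb of its start it had 1 peak in 14 libraries, 2 in 9, 3 in 6 and 4 in 1, while Neurog3 had 1 peak in all 30. The central piece recurred, with an upstream edge within 0.1 kb of 2.41 kb before the start in 13 libraries and a downstream edge within 0.1 kb of 2.42 kb past it in 12. The bases shared by all 30 promoter peaks spanned 3.1 kb (127632195 to 127635298) of a total of 22.4 kb. Its width was 3.1 kb at the lowest, 9.04 kb at the median and 22.4 kb at the highest. At day 0 the width was 4.6 and 4.83 kb in KO, 12.1 and 8.97 kb in MUT and 4.79 and 4.87 kb in WT cells, so both MUT lines lay above the other lines. At day 2 it was 22.4 and 16.8 kb in KO, 16.8 and 9.01 kb in MUT and 18.8 and 19.5 kb in WT cells, and both MUT lines lay below both WT lines. Bases covered within 10 kb of the start overlapped between genotypes at day 0. They were 7.12 and 12.5 kb in KO, 15.9 and 8.97 kb in MUT, and 7.26 and 13.1 kb in WT cells. By that measure both MUT lines stayed below both WT lines at day 2. An exact permutation of 2 lines against 2 cannot reach the threshold, so no test was run at single time points and these values are a description. The share of all promoters with such a separation is not given here.

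Neurog3 (ENSMUSG00000044312.4, chromosome 10, 62133090 to 62134763, plus strand) had a compact domain of 6.33 to 14.4 kb, with a median of 9.16 kb and a shared core of 6.26 kb (62128526 to 62134783). The combined extent also reached the start site of Fam241b. At day 2 the Neurog3 peak was 12.8 and 12.9 kb wide in KO, 11.8 and 7.68 kb in MUT and 14.4 and 12.3 kb in WT cells, so 5 of these 6 libraries lay above the median and CM59 below it. Peaks in general were broad at that day, as given above.

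Atoh1, which specifies cerebellar granule neurons, hair cells and secretory cells of the gut (ENSMUSG00000073043.5, chromosome 6, 64729125 to 64731245, plus strand), had a peak of 2.07 to 15.3 kb with a median of 9.42 kb. It reached mainly downstream, with a median of 8.05 kb past the start site and 2.6 kb before it. The library without a call was WT70 at day 3, which had a peak beyond the gene but none within 1.5 kb of the start. All 29 promoter peaks shared 1.97 kb (64729064 to 64731029), a stretch that covers most of the gene.

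**Figure D3:**
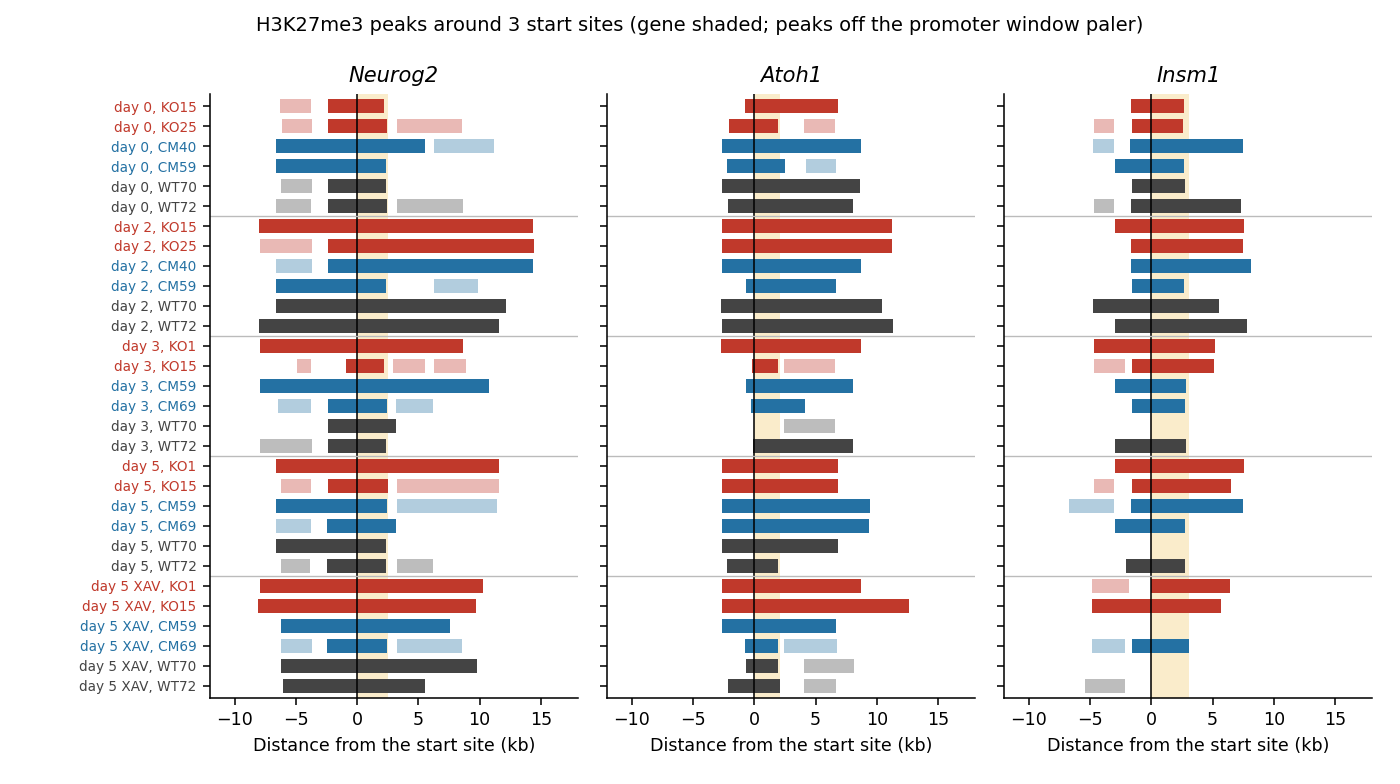
H3K27me3 peaks around the start sites of Neurog2, Atoh1 and Insm1 in each library (rows, by day and line; KO red, MUT blue, WT grey), by distance from the start site in kb, with the gene shaded and peaks outside the promoter window paler. Neurog2 is covered in 1 piece in 14 libraries and in several in the others, and the Insm1 gene is bare in 5 libraries, 4 of them WT.

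The NeuroD factors act later, in differentiating neurons and, for Neurod1, in endocrine cells. Neurod2 (ENSMUSG00000038255.6, chromosome 11, 98325415 to 98329648, minus strand) carried the widest peak of the set by median, and the highest-ranked by total signal. Its median width was 26.1 kb, reached by 1.51% of promoters called in at least 2 libraries, with 5.37 kb in KO15 at day 3 as the lowest and 43.2 kb in WT70 at day 2 as the highest. Its combined extent of 44.5 kb also reached the start site of Ppp1r1b, and its shared core was 3.27 kb (98326517 to 98329783). Its upstream edge lay within 0.1 kb of 11.46 kb before the start in 19 of 30 libraries.

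Neurod1 (ENSMUSG00000034701.9, chromosome 2, 79452521 to 79456751, minus strand) was at the other end. Its 9 peaks were 4.12 to 7.32 kb wide and stood at ranks 1227 to 1622. All 9 ended within 0.1 kb of 3.07 kb past the start site, inside the gene. The 9 libraries with this peak held 1728 to 3466 peaks. Neurod4 (ENSMUSG00000048015.4, chromosome 10, 130268152 to 130280240, minus strand) and Neurod6 (ENSMUSG00000037984.9, chromosome 6, 55677822 to 55681263, minus strand) had none.

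Insm1 (ENSMUSG00000068154.5, chromosome 2, 146221921 to 146225020, plus strand) had a peak of 4.14 to 10.8 kb where called, with a median of 6.67 kb. All 25 peaks shared 2.6 kb inside the gene (146221924 to 146224520).

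KO was compared with WT over all 5 time points by exactly permuting the genotypes at each time point, with p-values adjusted over all 2857 promoters tested. No member passed in presence, width or rank at an adjusted p below 0.05. The members called in every library did not pass in width, with differences of -0.56 kb for Neurog1, 2.78 kb for Neurog2, 0.66 kb for Neurog3 and 0.59 kb for Neurod2 and exact p of 0.175 to 0.883. Insm1 was called in 10 of 10 KO, 9 of 10 MUT and 6 of 10 WT libraries. For KO against WT the exact p was 0.0833 and the adjusted p 0.98. With a window of 3 kb Insm1 was called in 7 of 10 WT libraries, and the exact p was 0.25. Across all promoters 4.06% were called more often in KO at an unadjusted p below 0.05, and none passed after adjustment, with 117 promoters at an unadjusted exact p below 0.05 in either direction. Neurod1 was called in 5 of 10 KO, 3 of 10 MUT and 1 of 10 WT libraries (exact p = 0.153 for KO against WT).

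The Insm1 peak averaged 8.05 ± 2.51 kb in KO and 4.5 ± 4.42 kb in WT libraries (SD, n = 10 each, 0 where no peak). The exact p for this difference of 3.55 kb was 0.0324 and the adjusted p 0.298, on a background of 13.1% of promoters wider in KO at the unadjusted threshold. Its rank had a geometric mean of 499 in KO and 808 in WT libraries, a difference of -0.70 on the log2 scale, where a negative value is nearer the top (exact p = 0.0491, adjusted p = 0.147, background 4.45%). These values rested on single lines. Without WT70 the difference in width was 1.98 kb (exact p = 0.276) and that in the share of libraries called 0.20 in place of 0.40, and without KO1 or KO15 the exact p for width was 0.11 and 0.115. The exact p for rank was 0.0905 to 0.206 without KO1, KO15, WT70 or WT72 in turn. At day 0 the width was 4.36 and 4.14 kb in KO, 9.21 and 5.59 kb in MUT and 4.37 and 8.98 kb in WT cells. At day 2 it was 10.6 and 9.16 kb in KO, 9.81 and 4.22 kb in MUT and 10.3 and 10.8 kb in WT cells. Up to day 2, then, every library had the peak. Both KO lines lay below both WT lines in width at day 0, if narrowly for KO15 and WT70, and farther from the top in rank at days 0 and 2, while their widths overlapped at day 2.

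At day 5 without XAV, genotype cannot be told apart from cell type, as given above. After day 2 KO and WT libraries drew apart at Insm1. At day 3 the width was 9.94 and 6.67 kb in KO, 5.78 and 4.29 kb in MUT and 0 and 5.8 kb in WT cells. At day 5 it was 10.6 and 8.14 kb in KO, 9.14 and 5.71 kb in MUT and 0 and 4.8 kb in WT cells. At day 5 XAV it was 6.44 and 10.5 kb in KO, 0 and 4.59 kb in MUT and 0 kb in both WT lines. Every KO library thus lay above every WT library, a pattern found at 3.9% of the 2229 promoters tested after day 2, and MUT lines overlapped both.

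Restricted to these 3 time points, Insm1 was called in 6 of 6 KO, 5 of 6 MUT and 2 of 6 WT libraries. For KO against WT the difference in presence was 0.67 (exact p = 0.0833, adjusted p = 0.495). Over all promoters tested the median of that difference was 0.333. At an unadjusted p below 0.05, 7.94% of promoters were called more often in KO. The peak was 8.71 ± 1.89 kb in KO and 1.77 ± 2.76 kb in WT libraries (SD, n = 6 each; difference 6.94 kb, exact p = 0.00926, adjusted p = 0.106), where 24.1% of promoters were wider in KO at an unadjusted p below 0.05. In rank Insm1 passed the adjusted threshold, as did 2.92% of promoters in this direction and 23.2% in the other. Its geometric mean rank was 363 in KO and 1039 in WT libraries (difference -1.52 on the log2 scale, adjusted p = 0.0355 from the exact test). The adjustment depends on the promoters that pass in both directions. A promoter without a peak was ranked just below the last peak of its library. The exact p of 0.00926 is the smallest these 6 against 6 libraries allow. They are the lines KO1, KO15, WT70 and WT72 at 3 time points each, and the test treated libraries of a line as separate. A permutation of whole lines, 2 against 2, cannot reach the threshold. The adjusted p was above 0.05 without any 1 of the lines KO1, KO15, WT70 or WT72, between 0.0991 and 0.149, where the smallest possible exact p was 0.037. With the same number of peaks taken from every library the difference was -0.89 (exact p = 0.0278, adjusted p = 0.243). KO libraries held more peaks than WT libraries at these times, and the part this has in the result was not tested beyond that alternative.

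**Figure D4:**
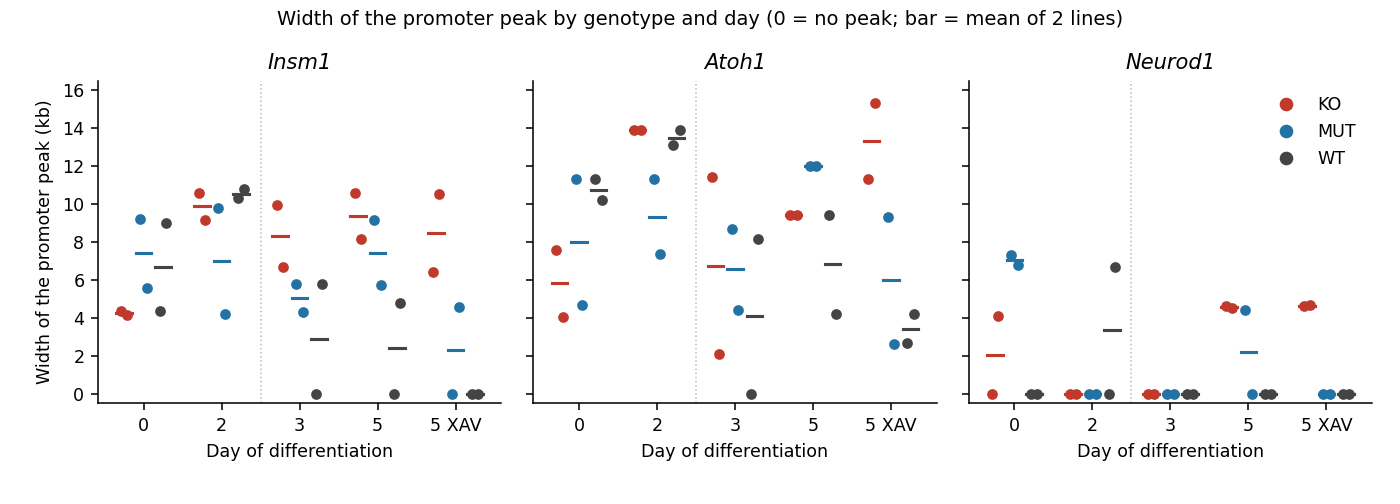
Width of the promoter peak in kb (vertical axis, 0 where no peak) of Insm1, Atoh1 and Neurod1 by day of differentiation (horizontal axis) in KO, MUT and WT cells, with each library as a point and the average of both lines as a bar. After day 2 (dotted line) all 6 KO libraries lie above all 6 WT libraries for Insm1, at 6.44 to 10.6 kb against 0 to 5.8 kb, and not for Atoh1.

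Atoh1 after day 2 was 11.4 and 2.07 kb wide at day 3, 9.42 kb in both lines at day 5, and 11.3 and 15.3 kb at day 5 XAV in KO cells. In MUT cells it was 8.7 and 4.42 kb at day 3, 12 kb in both lines at day 5, and 9.3 and 2.64 kb at day 5 XAV. In WT cells it was 0 and 8.14 kb at day 3, 9.42 and 4.22 kb at day 5, and 2.65 and 4.2 kb at day 5 XAV. KO and WT overlapped at day 3. At day 5 both KO lines and WT70 had the same width to within a few bases, with WT72 narrower. At day 5 XAV both KO lines lay above both WT lines, as they did at every other member with a peak. Over the 3 time points the difference of 5.04 kb between KO and WT had an exact p of 0.0648 and an adjusted p of 0.196. The median of this difference over all promoters tested was 1.83 kb. Neurod1 had a peak in 4 of 6 KO, 1 of 6 MUT and 0 of 6 WT libraries after day 2 (exact p = 0.0556 for KO against WT, adjusted p = 0.48). Its 4 KO peaks were those of KO1 and KO15 at day 5 and day 5 XAV, 4.54 to 4.66 kb wide. They stood at ranks 1393 to 1485, in libraries of 1729 to 2738 peaks, while the WT libraries of day 5 and day 5 XAV held 1270 to 1717 peaks in all. Whether the difference in peak number accounts for the calls at Neurod1 was not tested, and with the same number of peaks from every library Neurod1 was called in 0 libraries.

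MUT was compared with WT in the same way, with the same WT libraries as in the comparison of KO. No member passed the adjusted threshold. Neurog3 had the lowest p of the set, with its rank farther from the top in MUT cells. Its rank at day 0 was 428 and 346 in MUT and 253 and 294 in WT cells, and at day 2 it was 264 in both MUT lines and 209 and 229 in WT cells. At day 3 it was 205 and 197 in MUT and 157 and 170 in WT cells, at day 5 it was 167 and 135 in MUT and 164 and 152 in WT cells, and at day 5 XAV it was 166 and 160 in MUT and 120 and 126 in WT cells. The lines of the 2 genotypes overlapped only at day 5. The geometric mean rank was 219 in MUT and 180 in WT libraries, a difference of 0.28 on the log2 scale (exact p = 0.00231, adjusted p = 0.134), and 4.07% of promoters lay farther from the top in MUT at an unadjusted p below 0.05. Ranked by the highest point of the peak in place of total signal, the difference was 0.12 (exact p = 0.697). Insm1 after day 2 had a geometric mean rank of 611 in MUT and 1039 in WT libraries (difference -0.77, exact p = 0.0463, adjusted p = 0.369). Between KO and MUT no member reached an exact p below 0.05 in any measure, and the lowest was that of the Insm1 width, at 8.05 ± 2.51 kb in KO and 5.83 ± 2.96 kb in MUT libraries (SD, n = 10 each, exact p = 0.0887).

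Late libraries (days 3 and 5) were compared with early libraries (days 0 and 2), all without XAV, to ask how the mark at these promoters moves as cells leave pluripotency. Neurog3 stood nearer the top in late libraries. Its rank had a lowest, median and highest value of 132, 166 and 205 in the 12 late libraries and of 206, 262 and 428 in the 12 early libraries, so the groups did not overlap, as at 0.678% of the 3099 promoters tested. The geometric mean rank was 167 in late and 265 in early libraries (difference -0.67 on the log2 scale, adjusted p = 3.41e-04 by exact permutation within genotypes), and 16.7% of promoters passed in this direction. Permuted within the 4 lines sampled throughout, as a replicate block, the difference was -0.62 (exact p = 0.00154, adjusted p = 0.0428). As a percentile of the peaks of a library, which depends on how many weak peaks were called, the Neurog3 difference, signed as for ranks so that a negative value is nearer the top, was -2.36 points and did not pass (exact p = 0.105, adjusted p = 0.273). Its width did not pass, at 8.79 ± 1.71 kb in late and 9.67 ± 2.9 kb in early libraries (SD, n = 12 each, permutation p = 0.384).

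With peaks as deposited and all lines, no other member passed the adjusted threshold between late and early libraries. Neurog1 was 6.52 to 18.8 kb wide with a median of 17.1 kb in late libraries and 11.7 to 23.3 kb with a median of 19.3 kb in early libraries (difference -2.99 kb, permutation p = 0.0334, adjusted p = 0.114). The Neurog1 difference passed with peaks under 3 kb apart joined, an alternative chosen after seeing the data (-2.26 kb, adjusted p = 0.00117 by exact permutation), and without KO15 (-3.35 kb, adjusted p = 0.00285 by exact permutation). Without KO25 it was -1.90 kb (exact p = 0.269), and under the replicate block -1.87 kb (exact p = 0.307). Neurod2 was 5.37 to 28.4 kb wide with a median of 23.9 kb in late libraries and 13.9 to 43.2 kb with a median of 28.6 kb in early libraries (permutation p = 0.0485, adjusted p = 0.142). Both groups overlapped widely, and 33.1% of all promoters were narrower in late libraries at the unadjusted threshold. As bases covered within 10 kb of the start site the Neurod2 difference was -0.50 kb (exact p = 0.211). That measure cannot exceed 20 kb, its value in KO15 at day 2 where the peak was 30.7 kb wide. It therefore cannot show changes in width beyond that limit. With peaks under 3 kb apart joined, the Neurod2 difference was -4.95 kb (exact p = 0.0146, adjusted p = 0.0659). The rank of Neurod1, called in 3 late and 4 early libraries and otherwise set just below the last peak, differed by -0.30 (permutation p = 0.0491, adjusted p = 0.132, background 27.9%). Over the 30 libraries the rank of Neurod1 correlated with the number of peaks at a Spearman rho of 0.622, and the part of peak number in this difference was not tested.

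**Figure D5:**
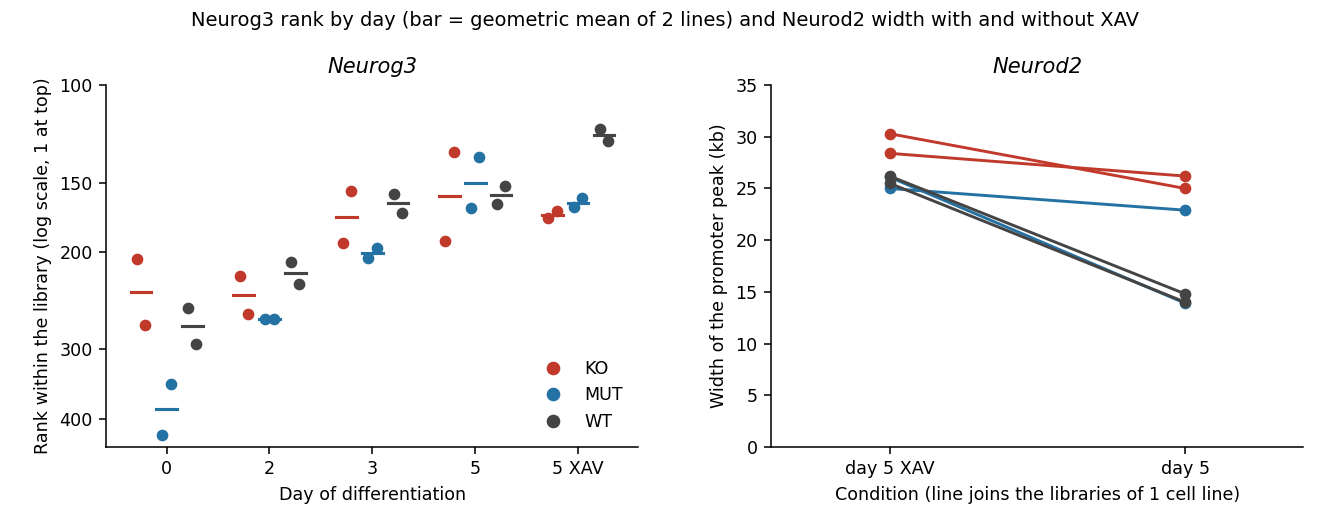
Left, rank of the Neurog3 promoter peak (logarithmic axis, 1 at the top of the library) by day of differentiation in KO, MUT and WT cells, 1 point per library and a bar for the geometric mean of the 2 lines; right, width of the Neurod2 promoter peak in kb at day 5 with XAV and at day 5 without, with a line joining the libraries of each cell line. Neurog3 ranks of days 3 and 5 are all between 132 and 205, those of days 0 and 2 between 206 and 428, and Neurod2 was wider with XAV in all 6 lines.

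XAV was tested at day 5 by permutation within genotypes. At Neurod2 the width at day 5 XAV was 28.4 and 30.3 kb in KO, 26.1 and 25 kb in MUT and 26.2 and 25.5 kb in WT cells. At day 5 without XAV it was 26.2 and 25 kb in KO, 13.9 and 22.9 kb in MUT and 14.8 and 14 kb in WT cells. The peak was wider with XAV in 6 of 6 lines, by 2.14 to 12.22 kb, a pattern shared by 3.71% of the 2348 promoters tested, although the ranges of the groups overlapped. The mean was 26.9 ± 2 kb with XAV and 19.5 ± 5.82 kb without (SD, n = 6 each, exact p = 0.00926, adjusted p = 0.256), and 7.03% of promoters were wider at the unadjusted threshold. With peaks under 3 kb apart joined, an alternative chosen after seeing the data, the Neurod2 difference was 1.97 kb in place of 7.45 kb (exact p = 0.0463).

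The other members moved less with XAV or in no shared direction. The rank of Neurog1 was 79 and 100 in KO, 76 and 66 in MUT and 64 and 59 in WT cells with XAV, and 57 and 49 in KO, 53 and 32 in MUT and 45 and 63 in WT cells without. It was farther from the top with XAV in 5 of 6 lines, and WT72 went the other way. The difference was 0.58 on the log2 scale (exact p = 0.0185, adjusted p = 0.157), and that of Insm1 was 0.73 (exact p = 0.037, adjusted p = 0.231), where 6.39% of promoters lay farther from the top with XAV at an unadjusted p below 0.05. Insm1 was called in 3 of 6 libraries with XAV and in 5 of 6 without. Atoh1 was wider with XAV in both KO lines, by 1.87 and 5.86 kb, and narrower in both MUT lines, by -2.73 and -9.39 kb, and in both WT lines, by -6.77 and -0.02 kb. Neurog2 and Neurog3 had exact p of 0.111 and 0.0926 for width.

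The genes around the proneural factors in their pathway were described from lists of partners, inhibitors and targets. None of the E-protein partners Tcf3, Tcf4 and Tcf12 was called in any library. All 4 Id inhibitors were called in at least 2 libraries and none in all 30. Of the 8 Hes and Hey repressors 6 were called in at least 2 libraries, and Hes1 was called in none. Of the 5 Notch ligands 3 were called in at least 2 libraries, with Dll4 in all 30 and Dll3 and Jag1 in 0. Of 11 other neural bHLH factors 10 were called in at least 2 libraries, and Nhlh2, Bhlhe23 and Ptf1a in all 30. Of 17 targets and neuronal differentiation genes 12 were called in at least 2 libraries, among them Insm2, Scrt1, Ebf2, Tbr1, Eomes and Rbfox3 in all 30, while 5 were called in 0: the zinc-finger factor genes Myt1 and St18, the cytoskeletal regulator genes Dcx and Stmn2, and Elavl4, which encodes an RNA-binding protein. Of 14 non-neural bHLH factors 10 were called in at least 2 libraries, with Tal1, Hand1, Hand2 and Ascl2 in all 30. These shares lie above the 14.5% of all genes except for the E-proteins.

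Between KO and WT no gene of these lists passed in presence after adjustment. At an unadjusted exact p below 0.05, 2 of 6 tested Hes and Hey genes were called more often in KO, and none in the other lists. Over all promoters tested this share was 4.06%. Hes5, the main Notch effector of neural progenitors, was called in 9 KO, 6 MUT and 4 WT libraries of 10 each (exact p = 0.0278, adjusted p = 0.844), and Hes3, a related repressor of early neuroepithelium, in 9 KO, 7 MUT and 4 WT libraries (exact p = 0.0417, adjusted p = 0.98). Hes7 of the segmentation clock was called in 7 KO, 4 MUT and 3 WT libraries. The Notch ligand gene Dll1, a direct proneural target, was called in 8 KO, 6 MUT and 4 WT libraries, and Scrt2, a neuronal zinc-finger repressor, in 9 KO, 8 MUT and 5 WT libraries. Id3 was called in 7 KO, 6 MUT and 4 WT libraries, Id2 in 3 KO, 5 MUT and 2 WT libraries, and the neuronal tubulin gene Tubb3 in 3 KO, 1 MUT and 0 WT libraries. Myod1, the myogenic bHLH factor, was called in 7 KO, 4 MUT and 9 WT libraries, the only one of these genes called in fewer KO than WT libraries. The exact p for KO against WT was at least 0.0833 for each of these 7 genes. The median difference in presence over all promoters tested was 0.1, against 0.30 over the Hes and Hey genes, 0.20 over the Notch ligands, 0.10 over the Id genes and 0.00 over the other lists with a called gene.

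The promoters whose rank moved most like that of a member over the 30 libraries are given as a description, since all points share the peak number of their library. For Insm1 these were Coch (Spearman rho 0.738), Evx2 (0.735) and Zbtb7c (0.724), whose ranks correlated with the number of peaks at 0.0191, -0.0908 and -0.0572. For Atoh1 they were Prkag2 (0.702), Tbc1d30 (0.56) and Lhx2 (0.554). For Neurod1 they were Slc30a10 (0.859), Bmpr1b (0.845) and Kcnd2 (0.844), called in 10, 9 and 14 libraries, and their ranks correlated with peak number at 0.566 to 0.736.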

How the data were processed

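H3K27me3 was profiled in 30 libraries by CUT&RUN, where a nuclease tethered to the antibody releases the chromatin around it, each with an IgG control (30 samples). The authors used Trim Galore for trimming, Bowtie (local mode, GRCm38.p6) for alignment and Picard for removal of duplicates, and called peaks per library with SEACR in stringent mode against IgG; the SEACR version is not given in the sources used here. The deposited peak values are a signal, the total and the maximum of fragment coverage over the peak, in whole numbers and not scaled for depth by the authors. They were used only to rank peaks within a library. Depth is unknown, so no counting interval is given. Region lists the authors made from KO and WT libraries with DiffBind 3.0.15 were not used here.

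A promoter was the stretch within 1.5 kb of a protein-coding transcript start in GENCODE M21, and 1 bp of overlap counted as a peak. The peak with the most total signal gave width (0 where none) and log2 rank from the top (number of peaks + 1 where none). Every promoter called in at least 2 libraries of a comparison was tested by two-sided exact permutation within strata, which were time points for genotypes and genotypes for late against early and for XAV, and adjusted by Benjamini-Hochberg over all of them at 0.05. For XAV the same cell lines were sampled with and without it, so lines pair the samples. The deviations of lines from their group in rank correlated at 0.0807 in KO, -0.382 in MUT and 0.0795 in WT cells over 2348 promoters. Late and early libraries share only 4 lines. The replicates are the 2 lines of a group, and libraries of a line at different days were treated as separate. No 2 libraries held identical peaks (0 pairs). All 9 members were named, from each list the genes whose number of called libraries differed by 3 or more of 10 between KO or MUT and WT (at most 4 a list), and for each member called in some libraries the 3 promoters with the most similar rank. The members and lists were chosen with earlier results of these data known. Tests were checked on simulated data. Python 3.11.15, NumPy 2.4.6, SciPy 1.17.1, pandas 2.3.3 and Matplotlib 3.10.9 were used. Alternatives changed the window to 3 kb, the overlap to 500 bp, the peaks to the strongest 50% or to the same number in every library, the ranking value, the lines and libraries included, and the block. Another measured width as the bases covered within 10 kb of the start site.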

Additional observations from a re-analysis of the deposited data

Results flagged for a closer look

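Single time points have 2 lines against 2, so the differences between time points or genotypes in this section were not tested. Those with XAV were noted because both lines of a group moved one way and both lines of the other the opposite way. Those between time points were noted because both lines of a group lay above both lines of the other at one time and below them at another. KO and MUT lines partly differ between days up to 2 and later days. They were picked by this rule, and the share of all promoters with such a pattern is not given here. Widths are in kb and ranks on the log2 scale, where negative values are nearer the top. The effect of XAV on Atoh1 was 7.26 kb larger in KO than in WT and 9.92 kb larger in KO than in MUT in width, and -1.42 and -1.85 in rank. The difference between KO and WT in the width of Atoh1 was 7.52 kb larger at day 5 and 14.78 kb larger at day 5 XAV than at day 0, with -3.28 in rank for day 5 XAV; at day 5 the KO lines exceeded WT70 by only a few bases. The difference between MUT and WT at Atoh1 was 9.38 kb larger at day 5 than at day 2, and -1.45 in rank.

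The difference between KO and WT in the width of Insm1 was 7.82 kb larger at day 3, 9.38 kb larger at day 5 and 10.88 kb larger at day 5 XAV than at day 0, and that between MUT and WT was 8.53 kb larger at day 5 than at day 2. At day 0 the Insm1 peak was 4.36 kb wide in KO15 and 4.37 kb in WT70, so that separation was narrow. At Neurog3 the difference between KO and WT in width was 3.46 kb larger at day 5 and 2.25 kb larger at day 5 XAV than at day 0, and that between MUT and WT was larger at day 5 XAV by 2.62 kb than at day 0 and by 4.78 kb than at day 2. At Neurog2 the difference between MUT and WT at day 0 minus that at day 2 was 11.99 kb in width and -2.95 in rank. At Neurog1 the difference between MUT and WT in rank at day 2 minus that at day 5 XAV was -0.73. At Neurod2 the difference between KO and WT in rank at day 5 was -3.32 relative to day 3 and -2.21 relative to day 5 XAV. The day 3 ranks of Neurod2 were 18 in KO1, 174 in KO15, and 10 and 16 in WT cells. In KO15 at day 3 the mark lay in 3 peaks within 10 kb of the start, so that separation rested largely on 1 library.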

How the results depend on the processing

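The 4 members with a peak in every library became 5 with a window of 3 kb or without WT70 and 3 with an equal number of peaks per library. Over all promoters, the adjusted calls for rank between KO and WT were 75, against 7 with the same number of peaks, 0 by maximum signal, 0 by percentile, 0 to 55 without each line in turn (0 without KO1, KO15, WT70 or WT72), and 582 after day 2. Between MUT and WT the 0 calls for rank became 15 with peaks under 3 kb apart joined and 16 without the smallest library. Between late and early libraries the 96 calls for presence became 22 with the strongest 50% of peaks, 43 with the same number of peaks and 20 to 70 without each line (lowest without WT72); the 614 for width became 216 with the same number and 359 to 629 without each line (lowest without WT70); and the 714 for rank became 263 with the same number and 413 to 1268 without each line (lowest without KO25, highest without KO15). The cause was not tested. Fewer promoters enter the test with the same number of peaks.

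With the replicate block, permuting within lines, the late against early calls were 0 for presence, 92 for width and 96 for rank, and those for XAV stayed at 0 in all 3 measures. Under the block the exact p with XAV was 0.0312 for the Neurod2 width, 0.0625 for the Neurog1 rank and 0.0938 for the Insm1 rank. The Neurod1 rank between late and early libraries reversed to 2.33 as a percentile, signed so that a positive value is farther from the top (exact p = 0.842). Of the other member results under alternatives, 93 kept their direction and side of the threshold, 56 lost it and 2 gained it; the threshold was that of the adjusted p for the Insm1 rank after day 2 and of the unadjusted p otherwise.

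Peak calls limit these data: depth is unknown, a promoter that always has a peak can change only in width or rank, and 2 lines per group and time point leave single time points untested.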
